A study of Homo sapiens with 4 samples.

Results

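The genes described here are 43 transcripts of mitosis and the mitotic spindle, chosen by name from what they are known to do: cyclins and the kinase they activate, mitotic kinases, the chromosomal passenger complex, the spindle checkpoint, the anaphase machinery, kinetochore proteins, kinesins, spindle and cytokinesis proteins, and the proliferation genes FOXM1, TOP2A and MKI67. All 43 were found in the deposited table of 32479 genes, and 42 reached 1 FPKM (a fragment count divided by gene length in kilobases and by the library's counted total) in both cell lines. The study grew 2 human liver cancer lines labelled WT: HepG2, derived from a hepatoblastoma, and PLC/PRF/5, a hepatoma line with integrated hepatitis B virus DNA. Each line gave 1 untreated culture sampled at 24 h and 1 culture kept for 24 h in 20 uM PF-429242, an inhibitor of site-1 protease, so each of the 4 groups held 1 library. With no second culture per group, none of the treatment differences could be held against replicates. Intervals given below are 95% exact counting intervals, which compare libraries and cover counting error only.

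Mitotic genes are transcribed in a wave that begins in the S phase of the cell cycle and peaks as cells enter mitosis. Their promoters are held silent in resting cells by the DREAM complex and are switched on in dividing cells by the MYBL2-containing MuvB complex and by FOXM1. A short promoter element called the CHR, usually near the transcription start and often accompanied by CCAAT boxes bound by NF-Y, recruits these complexes. In cultured cancer cells the summed level of these transcripts is commonly read as a proliferation signature. In bulk RNA, fewer cells in G2 and mitosis and less RNA per such cell cannot be told apart.

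The libraries held 16722204 to 21387301 counted fragments, and the measured members had between 141 and 13965 fragments per library. Of the hepatocyte markers, 9 of 9 were above 1 FPKM in all 4 libraries, among them ALB (albumin) and HNF4A. Markers of fibroblasts, endothelium and blood cells stayed at or under 1.36 FPKM in 10 of 11 cases. COL1A1 stayed at or under 0.190 FPKM, CD3E at or under 0.0207, and PECAM1 lay between 0.819 and 1.36. The exception was LYZ, at 179 to 504 FPKM. Mitochondrially encoded RNA took 16.6% of fragments in the HepG2 control and 27.6% in treated HepG2, and 21.3% and 28.2% in PLC/PRF/5. FPKM are scaled to totals that include this RNA, so member values are set beside those of all genes throughout.

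Most of these genes shared the CHR letters, which played no part in their choice. RefSeq promoters (GRCh38.p14, 250 bases before to 50 after each start) were held for 36 of the 43 genes. The letters TTTGAA or TTCGAA, read on both strands, stood in the promoters of 29 of the 36 genes (80.6%), against 19.5% of the 27305 genes in the table. Counted by promoter, the shares were 31 of 45 (68.9%) for the members and 16.4% of all 35116 promoters. CCAAT, read on both strands, was found for 29 of the 36 genes (80.6%), against 39.7% of all genes. Both motifs were held by 24 member genes (66.7%), against 7.85% of all. Read on the other strand, CCAAT can share an A with TTTGAA, as in the CDCA8 window printed here. Counting only pairs that shared no letter gave the same 24 member genes (66.7%) and 7.79% of all. A match is a description of sequence, not evidence of a bound site.

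Windows of 30 bases were cut around the CHR letters in genes that hold them, to show the element in its setting. They share the letters by choice and are printed 5′ to 3′ on the gene's strand, with the CHR letters in capitals. KIF23 and CDK1 had the lowest mean log2 ratio over the lines among members with a promoter in the table, and PLK1 and CDC25B the highest; the others show the element in genes of different roles.
KIF23, chr15:69414282-69414311, + strand: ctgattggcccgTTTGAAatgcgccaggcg
CDK1, chr10:60778453-60778482, + strand: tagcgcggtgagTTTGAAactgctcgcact
PLK1, chr16:23678848-23678877, + strand: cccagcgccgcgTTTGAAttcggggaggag
CDC25B, chr20:3796260-3796289, + strand: ctgctgttatttTTCGAAtatataaggagg
BUB1B, chr15:40161034-40161063, + strand: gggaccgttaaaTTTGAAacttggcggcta
KIF4A, chrX:70290058-70290087, + strand: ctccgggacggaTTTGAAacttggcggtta
CCNB2, chr15:59105105-59105134, + strand: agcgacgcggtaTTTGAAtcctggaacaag
CDCA8, chr1:37692481-37692510, + strand: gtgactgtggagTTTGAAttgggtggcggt
CDCA5, chr11:65084049-65084078, - strand: cagggcgggtaaTTCGAAcgttttttgcag
PRC1, chr15:90994538-90994567, - strand: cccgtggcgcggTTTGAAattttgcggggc
For CDK1 the table also holds an upstream start, and the 200 bases before it, free of annotated exons, carry the CHR letters and CCAAT side by side (capitals mark both).
CDK1, chr10:60778131-60778330, + strand: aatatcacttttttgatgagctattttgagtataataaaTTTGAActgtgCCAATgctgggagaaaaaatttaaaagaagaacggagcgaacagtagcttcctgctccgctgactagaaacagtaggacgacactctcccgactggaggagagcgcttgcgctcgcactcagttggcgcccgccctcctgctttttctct

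In 18 of the 36 genes (50%) the CHR letters lay within the 60 bases before a start, against 3.63% of all genes; this window was chosen after the positions were seen. Of the genes of DNA replication, which are induced earlier in the cell cycle, 2 of 32 held the letters anywhere in the promoter (6.25%), and 19 of 32 held CCAAT (59.4%). The values with PF-429242 were also split by the CHR letters. Only TTTGAA and TTCGAA were searched, so the split is by these letters and not by presence or absence of a CHR. In HepG2 the 28 measured members with the letters had a median log2 ratio of -0.39 and the 7 without had -0.38, and in PLC/PRF/5 the medians were -0.37 and -0.34. Members without the letters in these windows were AURKB, CCNA2, CCNB1, CENPE, KIF20A, KIF2C and PTTG1. Among all measured genes, those with the letters had medians of -0.19 and -0.13 in the lines, and those without had -0.18 and -0.12.

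Mitotic transcripts had lower values in both treated lines, by less than 2-fold for each measured member. In HepG2 all 42 measured members had a log2 ratio below 0, where 82.4% of all genes did and 17.6% lay above. In PLC/PRF/5 41 of 42 were below 0, where 70.9% of all genes were, and 1 above, where 29.1% were. The 41 were below 0 in each line, as were 62.5% of the 11062 genes measured in both. Log2 ratios are of (FPKM + 1), which understates the change of low genes. A log2 ratio of -0.32 or lower was counted as low and 0.32 or higher as high. In HepG2 26 of 42 members were low (21.5% of all genes) and 0 high (4.42%). In PLC/PRF/5 25 of 42 were low (19.7%) and 0 high (8.8%). In both lines at once 16 members were low, against 6.98% of the genes. By counting intervals on the deposited scale, 39 members lay wholly below 1 in HepG2 (50.3% of all genes) and 0 above (3.55%). In PLC/PRF/5 38 lay below 1 (41.4%) and 0 above (10.4%). An interval narrows as fragments rise. The shares of all genes given with intervals, here and below, were not matched to the members in fragments. The treated over control ratios of a line were given intervals on this scale only.

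The member median was -0.39 in HepG2 and -0.34 in PLC/PRF/5, beside -0.17 and -0.13 over all genes. The distance of the members from all genes was -0.22 in each line. Summed over the 43 genes, 4889.7 fragments per 1e6 counted (4856 to 4923) in the HepG2 control stood against 3647 (3621 to 3673) in treated HepG2. The PLC/PRF/5 control had 5007 (4978 to 5037) and treated PLC/PRF/5 had 3842 (3813 to 3872). Counted per 1e6 nuclear fragments, which sets aside the mitochondrial share, the sums were 5865 and 5037 in HepG2 and 6364 and 5351 in PLC/PRF/5.

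**Figure D1:**
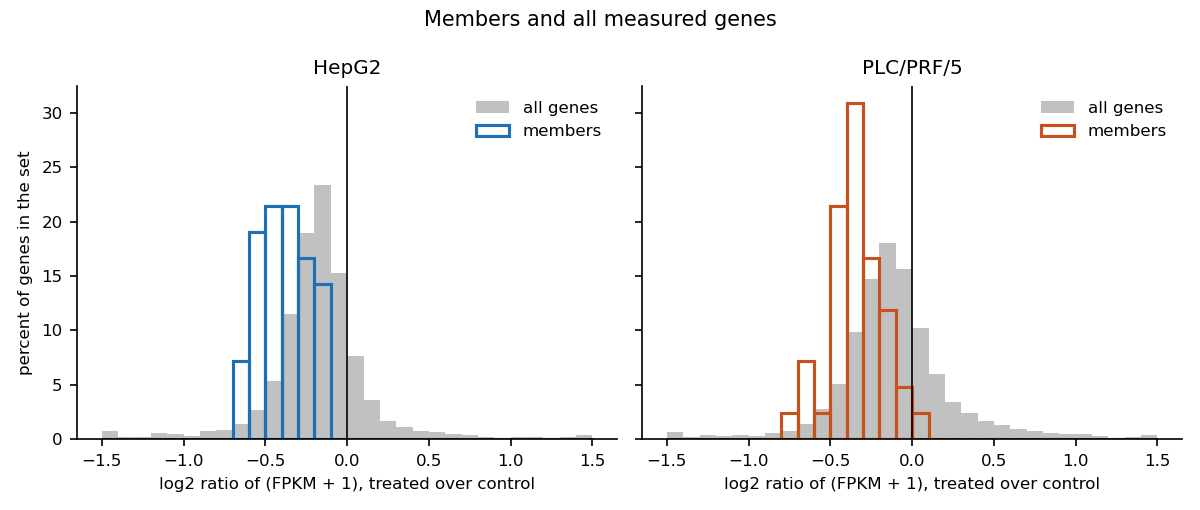
Distribution of log2 ratios of (FPKM + 1), treated over control, in bins of 0.1 on the horizontal axis, with the percent of each set on the vertical axis; grey bars are all measured genes, outlined bars the 42 members, and values beyond the ends are put in the end bins. The members overlap the bulk of genes and are shifted to its left side in both lines. Their medians are -0.39 in HepG2 and -0.34 in PLC/PRF/5, beside -0.17 and -0.13 over all genes.

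Under median-of-ratios scaling, which centres the typical gene near 0, the member medians were -0.18 and -0.23. Then 10 members were low in HepG2 (8.33% of genes low, 8.22% high) and 11 in PLC/PRF/5 (10.9% low, 11.9% high), and again 0 were high. Under this scaling 37 of 42 members were below 0 in HepG2, where 48.9% of genes were, and 39 in PLC/PRF/5, where 54.3% were. CDC25B, INCENP, NUF2, PTTG1 and FOXM1 turned to above 0 in HepG2, at 0.03 to 0.09, and CDC25B and CDC25C did so in PLC/PRF/5, at 0.09 and 0.03.

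**Figure D2:**
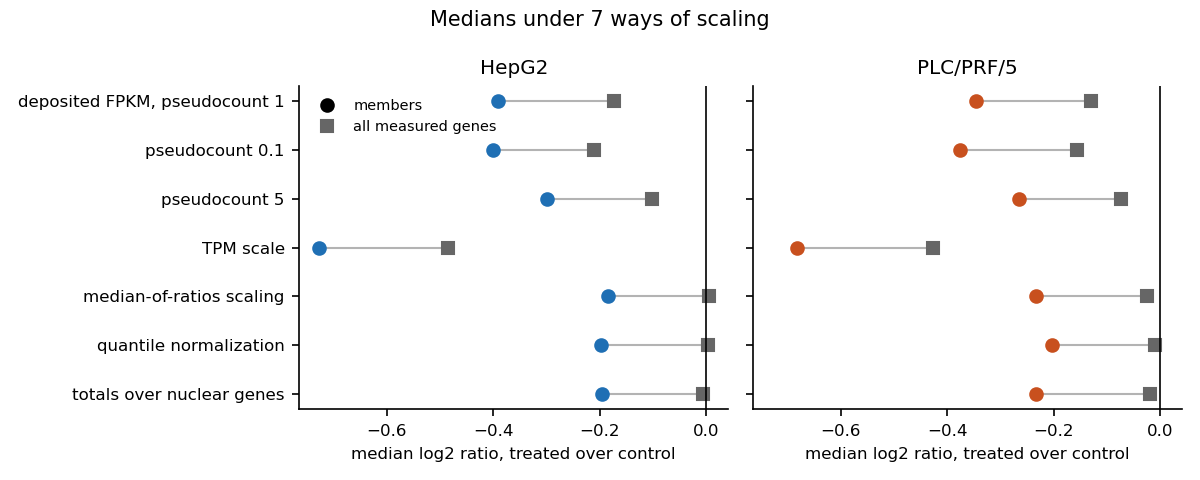
Median log2 ratio, treated over control, of the members (circles) and of all measured genes (squares) under the deposited scale and 6 alternatives, for HepG2 on the left and PLC/PRF/5 on the right. Both medians shift together, and the member median lies left of the gene median in each of the 7 settings shown for each line.

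A fit over both lines asked for a shared effect, with limma's moderated test, the cell line as a block and 1 residual degree of freedom. Its residual is the difference in response between the 2 lines, not a spread between cultures. Total degrees of freedom were 4.04, so most of each variance estimate was borrowed from other genes. With Benjamini-Hochberg adjustment over 12838 genes, 0 of 42 members passed an adjusted p of 0.05, as did 0% of all genes. At an unadjusted p under 0.05 the limma fit held 34 of 42 members, against 19.4% of all genes. The smallest adjusted p of a member, 0.193 in limma, belonged to CDK1 among others; its shared log2 change was -0.60 ± 0.07 (SE), lower in both lines. FPKM rescaled to equal sums was the exception among the scalings: there 40 of 42 members passed, as did 30.5% of all genes.

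Cyclins and the regulators of CDK1 drive entry into mitosis. All 7 members of this group were below 0 in both lines, as were 82.4% of all genes in HepG2 and 70.9% in PLC/PRF/5. Their medians were -0.43 in HepG2 and -0.37 in PLC/PRF/5. Under median-of-ratios scaling 6 were below 0 in HepG2 (48.9% of all genes) and 5 in PLC/PRF/5 (54.3%). CDK1 (ENSG00000170312, GRCh38 chromosome 10, 60778331 to 60794852), the kinase that mitotic cyclins activate, went from 22.9 FPKM untreated to 14.4 treated in HepG2, and from 25.0 untreated to 16.6 treated in PLC/PRF/5. Below, each pair of FPKM gives the control first and the treated library second. Both treated libraries were below both controls. The ratios were 0.627 (0.580 to 0.678) in HepG2 and 0.666 (0.619 to 0.717) in PLC/PRF/5. CCNB1, its main mitotic cyclin, was at 56.9 and 40.7 FPKM in HepG2 and at 62.5 and 48.3 in PLC/PRF/5, again with both treated libraries lowest. CCNA2, the S- and G2-phase cyclin, had nearly the same ratio in the lines, 0.764 and 0.767. CCNB2 changed less than CCNB1, with ratios of 0.818 (0.744 to 0.899) and 0.914 (0.820 to 1.02). The phosphatase gene CDC25B, which removes inhibitory phosphates from CDK1, was nearest to 0 in the group: 14.8 and 13.2 FPKM in HepG2 and 16.1 and 15.7 in PLC/PRF/5, where the interval held 1 (0.907 to 1.06). Its relative CDC25C was at 6.27 and 4.39 FPKM in HepG2 but at 3.71 and 3.49 in PLC/PRF/5, an interval there of 0.779 to 1.14. CDCA3, a trigger of WEE1 degradation, had ratios of 0.632 and 0.702.

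**Figure D3:**
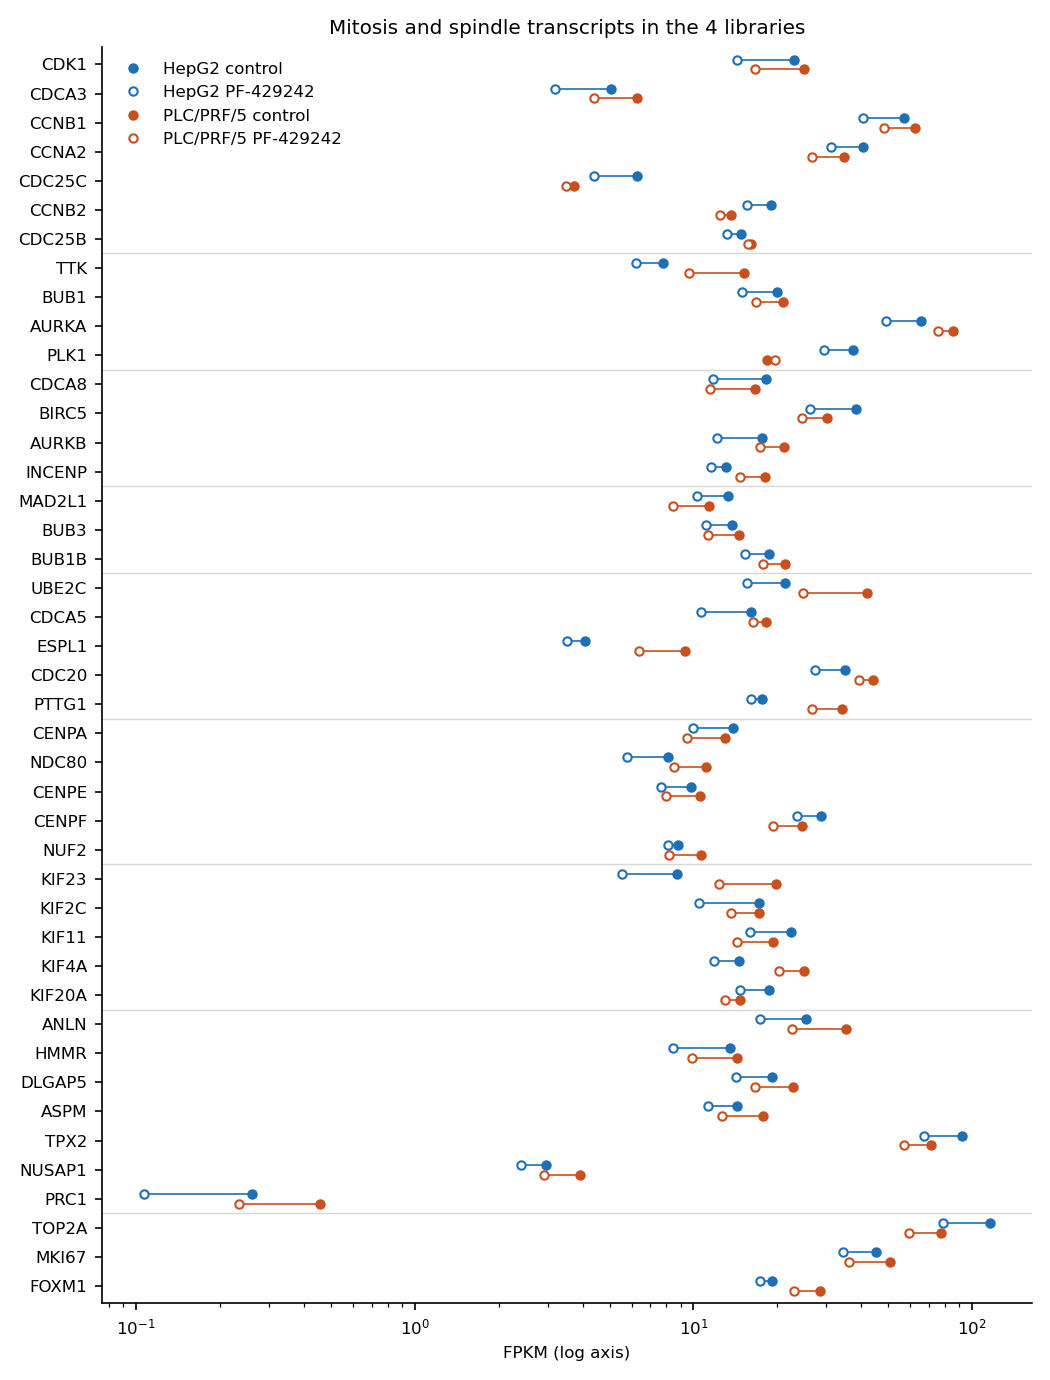
FPKM on a log axis for each of the 43 genes in the 4 libraries, grouped by role (thin lines); filled points are controls and open points PF-429242, with HepG2 in blue and PLC/PRF/5 in orange. Open points lie left of the filled ones except for PLK1 in PLC/PRF/5 (18.3 and 19.5 FPKM).

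The mitotic kinases held the member that was not lower in both lines. PLK1 (chromosome 16, 23677656 to 23690367), which acts in centrosome maturation and at kinetochores, was at 37.3 FPKM in the HepG2 control and 29.5 with PF-429242, a ratio of 0.790 (0.750 to 0.832). In PLC/PRF/5 it was at 18.3 and 19.5 FPKM, a ratio of 1.07 whose interval held 1 (0.996 to 1.14). The ratio in HepG2 was 0.741 times that in PLC/PRF/5 (0.681 to 0.807). Under median-of-ratios scaling the log2 ratios of PLK1 were -0.12 in HepG2 and 0.21 in PLC/PRF/5. TTK (chromosome 6, 80003887 to 80042527), the checkpoint kinase also called MPS1, went the other way between the lines. It was at 7.76 and 6.23 FPKM in HepG2 (ratio 0.804, 0.716 to 0.903) and at 15.2 and 9.67 in PLC/PRF/5 (ratio 0.636, 0.582 to 0.695). AURKA, the spindle pole kinase, was among the most abundant members: 65.3 and 49.3 FPKM in HepG2, and 85.1 and 75.3 in PLC/PRF/5. BUB1, a kinase of the kinetochore, had ratios of 0.749 and 0.804.

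The chromosomal passenger complex corrects faulty attachments of chromosomes and then moves to the midzone. On the deposited scale its 4 members were lower in both lines with every interval below 1 (50.3% of all genes in HepG2, 41.4% in PLC/PRF/5). Medians were -0.52 in HepG2 and -0.29 in PLC/PRF/5. Under median-of-ratios scaling the medians were -0.31 and -0.17, and INCENP was at 0.03 in HepG2. CDCA8, which encodes borealin, was lowest: 18.1 and 11.7 FPKM in HepG2 and 16.6 and 11.5 in PLC/PRF/5, ratios of 0.645 and 0.693. BIRC5 (survivin) had ratios of 0.683 and 0.816, and the kinase gene AURKB 0.688 and 0.821. The scaffold gene INCENP was nearest to 1 in HepG2, at 13.1 and 11.5 FPKM (ratio 0.882, 0.807 to 0.963), and at 18.1 and 14.7 in PLC/PRF/5 (0.810, 0.750 to 0.874).

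The spindle checkpoint delays anaphase until all chromosomes are attached. Its 3 members lay close together, with medians of -0.28 and -0.35. MAD2L1, the inhibitor of CDC20, was at 13.3 and 10.3 FPKM in HepG2 and at 11.4 and 8.42 in PLC/PRF/5. BUB1B, which encodes BUBR1, was at 18.7 and 15.3, and at 21.3 and 17.7. BUB3, their partner, had ratios of 0.809 and 0.773. For these 3 genes the counting interval of the ratio between the lines held 1, while 24.9% of all genes lay wholly below 1 and 8.3% above.

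**Figure D4:**
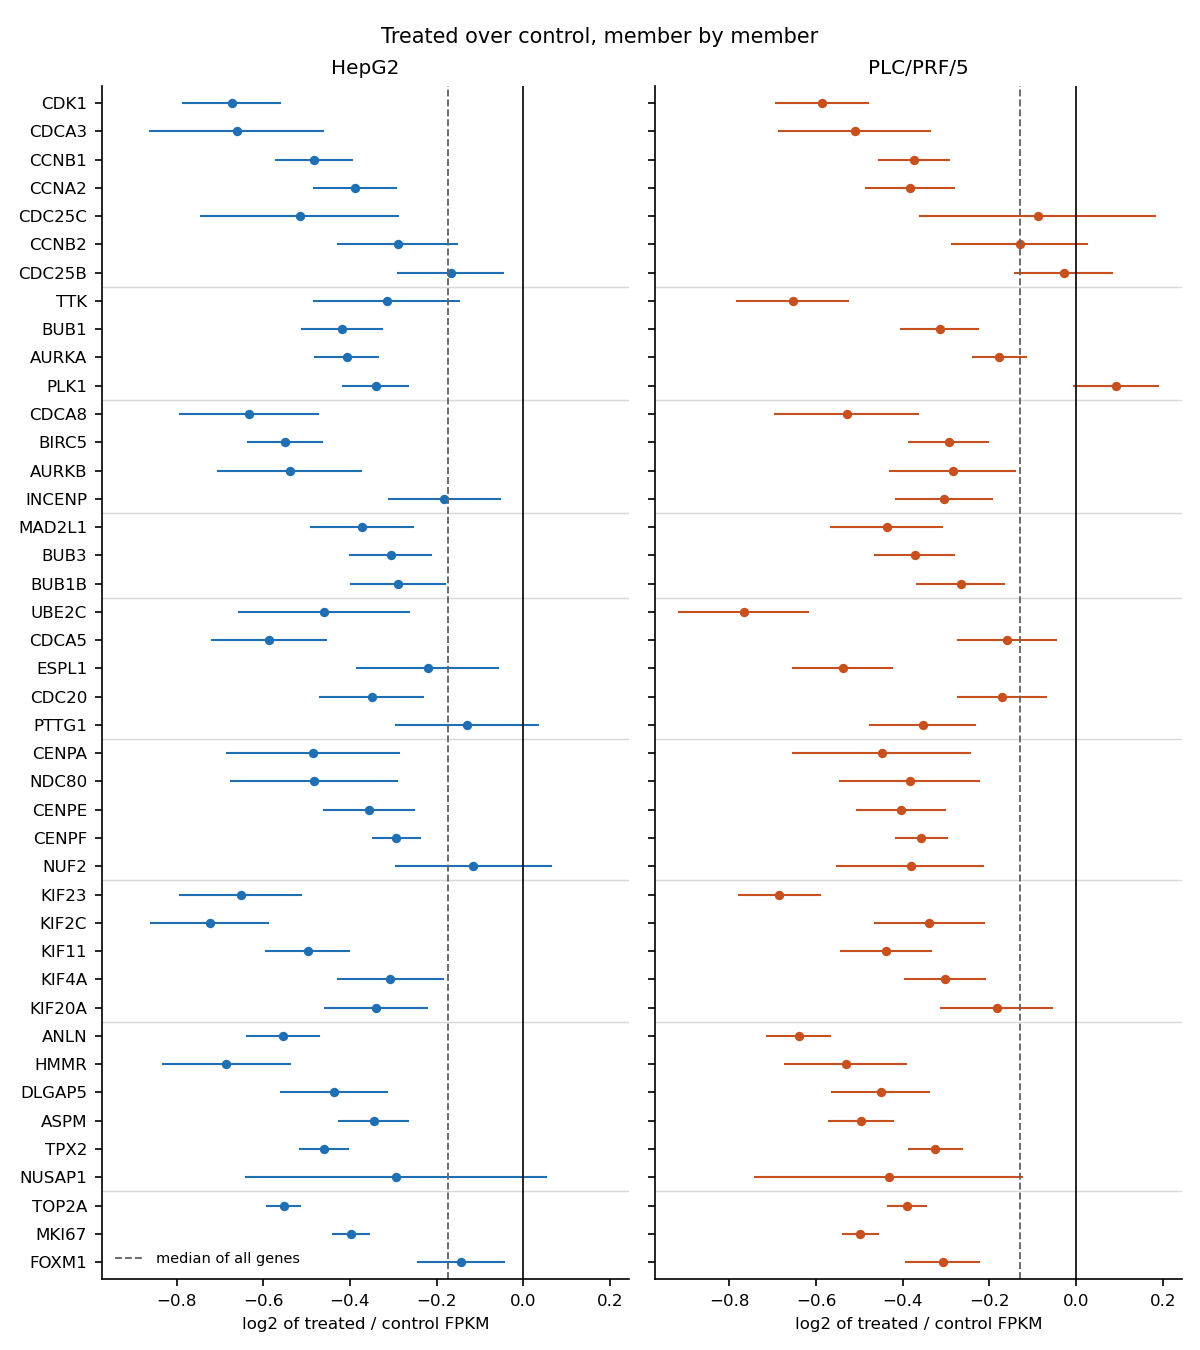
Log2 of the FPKM ratio, treated over control, for the 42 measured members grouped by role, with 95% counting intervals as bars; HepG2 on the left, PLC/PRF/5 on the right, and dashed lines at the median log2 ratio of all genes (-0.17 and -0.13). On the deposited scale, intervals lie wholly below 0 for 39 members in HepG2 (50.3% of all genes) and 38 in PLC/PRF/5 (41.4%). The shares of all genes were not matched for fragments.

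At anaphase the ubiquitin ligase APC/C destroys securin and the cyclins, which frees separase to cut cohesin. All 5 members of this group were below 0 in both lines, as were 82.4% of all genes in HepG2 and 70.9% in PLC/PRF/5. Their median was -0.34 in each line. Under median-of-ratios scaling 4 were below 0 in HepG2 (48.9% of all genes) and 5 in PLC/PRF/5 (54.3%). UBE2C (chromosome 20, 45812576 to 45816957), the ubiquitin-conjugating enzyme of the APC/C, was at 21.4 and 15.6 FPKM in HepG2 and at 41.9 and 24.6 in PLC/PRF/5. Its ratio in PLC/PRF/5, 0.588 (0.529 to 0.652), was the lowest of the measured members there. PTTG1 (securin) was at 17.6 and 16.1 FPKM in HepG2, where the interval held 1 (0.816 to 1.02), and at 34.1 and 26.7 in PLC/PRF/5 (ratio 0.782, 0.719 to 0.851). ESPL1 (separase) was at 4.09 and 3.51, and at 9.29 and 6.40. CDCA5, which encodes the cohesion protector sororin, was at 16.0 and 10.7 FPKM in HepG2 (ratio 0.666) and at 18.2 and 16.3 in PLC/PRF/5 (ratio 0.896). CDC20, the mitotic activator of the APC/C, had ratios of 0.785 and 0.888.

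Kinetochore genes had medians of -0.32 in HepG2 and -0.35 in PLC/PRF/5, with 5 of 5 low in PLC/PRF/5 (19.7% of all genes) and 2 of 5 in HepG2 (21.5%). Under median-of-ratios scaling 0 of the 5 were low in either line (8.33% of all genes in HepG2, 10.9% in PLC/PRF/5). CENPA, the centromeric histone H3 variant, was at 13.9 and 9.93 FPKM in HepG2 and at 13.0 and 9.52 in PLC/PRF/5. NDC80, the microtubule-binding subunit, had ratios of 0.716 (0.626 to 0.818) and 0.766 (0.685 to 0.856). Its direct partner NUF2 was at 8.77 and 8.10 FPKM in HepG2, a ratio of 0.923 whose interval held 1 (0.816 to 1.04), and at 10.7 and 8.20 in PLC/PRF/5. The kinesin gene CENPE and CENPF, a large protein of the outer kinetochore, had ratios between 0.756 and 0.816 in the lines.

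Kinesins move chromosomes and shape the spindle. On the deposited scale the 5 mitotic kinesins had intervals below 1 in both lines (50.3% of all genes in HepG2, 41.4% in PLC/PRF/5). Their medians were -0.47 and -0.32, and -0.27 and -0.20 under median-of-ratios scaling. KIF23 (chromosome 15, 69414246 to 69448427), a motor of the central spindle in cytokinesis, was at 8.72 and 5.55 FPKM in HepG2 and at 19.8 and 12.3 in PLC/PRF/5. Despite that difference in level, the ratios were 0.637 (0.578 to 0.701) and 0.622 (0.583 to 0.664). KIF2C, the depolymerase of kinetochore microtubules, had the lowest ratio of the measured members in HepG2, 0.606 (0.551 to 0.665), from 17.2 to 10.4 FPKM; in PLC/PRF/5 it was at 17.2 and 13.6 (0.791, 0.725 to 0.863). KIF11, the motor that separates spindle poles, had ratios of 0.708 and 0.738, and the chromokinesin gene KIF4A 0.808 and 0.812. KIF20A, a motor of the central spindle, had the smallest mean change of the 5, at 18.6 and 14.7 FPKM and at 14.7 and 13.0.

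Genes of spindle microtubules and cytokinesis had medians of -0.43 and -0.45 over 6 measured members. ANLN, which encodes the furrow scaffold anillin, was at 25.3 and 17.3 FPKM in HepG2 and at 35.2 and 22.6 in PLC/PRF/5, ratios of 0.681 (0.643 to 0.722) and 0.642 (0.610 to 0.675). HMMR, a spindle and hyaluronan-binding protein, had ratios of 0.622 and 0.692. TPX2, which activates AURKA on the spindle, was the second most abundant member in the HepG2 control, at 92.1 FPKM, and stood at 67.0 with PF-429242; in PLC/PRF/5 it was at 71.0 and 56.7. DLGAP5 had ratios of 0.739 and 0.732, and the spindle pole gene ASPM 0.787 and 0.709. NUSAP1 was at 2.95 and 2.41 FPKM in HepG2 and at 3.92 and 2.91 in PLC/PRF/5, with a HepG2 interval that held 1 (0.642 to 1.04).

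PRC1, the cross-linker of the central spindle, was the member that did not reach 1 FPKM: 24, 12, 54 and 22 fragments gave 0.260, 0.107, 0.457 and 0.235 FPKM in the order HepG2 control, treated, PLC/PRF/5 control, treated. In GENCODE 29, 57.6% of its exon bases are shared with AC068831.7, a gene on the same strand, and 62.2% of those of NUSAP1 with AC087721.2. How reads in shared exons were assigned is not stated in these sources, so the levels of both are uncertain. Without the 10 members that share at least 5% of their exon bases with other genes, a choice made after the values were seen, the medians over 33 members were -0.40 and -0.35.

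Of the remaining members, TOP2A (chromosome 17, 40388516 to 40417950), the topoisomerase that untangles sister chromatids, was at 116 and 78.8 FPKM in HepG2 and at 77.5 and 59.2 in PLC/PRF/5. The ratios were 0.682 (0.664 to 0.70) and 0.763 (0.740 to 0.787). MKI67, the Ki-67 proliferation antigen, was at 45.2 and 34.4 FPKM and at 50.8 and 36.0. FOXM1, the transcription factor of G2 genes, changed less: 19.2 and 17.3 FPKM in HepG2 (ratio 0.905, 0.845 to 0.970) and 28.5 and 23.0 in PLC/PRF/5 (0.808, 0.762 to 0.856).

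The lines were compared next. Across the 42 members, the log2 ratios of the lines had a Pearson r of 0.30 and a Spearman rho of 0.33, beside 0.18 and 0.28 across 11062 genes. These are descriptions across genes, whose values within a line come from the same 2 libraries. The median difference, HepG2 minus PLC/PRF/5, was -0.05 for the members and -0.06 for all genes, with 24 members below 0 (61.3% of all genes) and 18 above (38.7%). By counting intervals, the ratio was lower in HepG2 for 10 members (24.9% of all genes) and in PLC/PRF/5 for 8 (8.3%), and 24 intervals held 1. Under median-of-ratios scaling the split turned: 18 members were below 0 (47.4%) and 24 above (52.6%), with 6 intervals lower in HepG2 (16.3%) and 12 in PLC/PRF/5 (16.6%). The 5 members furthest apart were PLK1, CDCA5, CDC25C and KIF2C, lower in HepG2, and TTK, lower in PLC/PRF/5. Whether cultures of a line would differ as much was not tested, since each had 1 library per treatment.

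The untreated libraries of the lines differed member by member. Of 42 members, 28 were below 0 (53.3% of all genes) and 14 above (46.7%) in the log2 ratio of HepG2 to PLC/PRF/5, with a median of -0.15 beside -0.06 for all genes. Counted at 0.32, 12 were low in HepG2 (35.8% of all genes) and 6 high (30.2%), so both shares of the members were under the background. By counting intervals 25 lay below 1 (40.6%) and 11 above (34.6%). Under median-of-ratios scaling 28 were below 0 (52.5%), 11 low (34.8%) and 7 high (30.7%). The 5 most abundant members in either control were TOP2A, TPX2, AURKA, CCNB1 and MKI67, with TOP2A first in HepG2 at 116 FPKM and AURKA first in PLC/PRF/5 at 85.1.

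All 5 anaphase genes were lower in untreated HepG2 (53.3% of all genes), and 4 were low (35.8%). Their median of -0.92 was the lowest of the role groups, and the group is named here for that. ESPL1 had a ratio of HepG2 over PLC/PRF/5 of 0.440 (0.401 to 0.483), UBE2C of 0.510 (0.457 to 0.569) and PTTG1 of 0.516 (0.468 to 0.569). KIF23 stood at 0.440 (0.409 to 0.474) and TTK at 0.510 (0.463 to 0.562). PLK1 was the member furthest the other way, at 2.04 (1.92 to 2.16), followed by CDC25C at 1.69 (1.44 to 1.99). KIF23, ESPL1, UBE2C, TTK and PTTG1 were the lowest here. Every member shares both control libraries with the treatment comparisons and with the difference between the lines. These sets of values are therefore not independent, for PLK1, CDC25C and TTK among others.

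**Figure D5:**
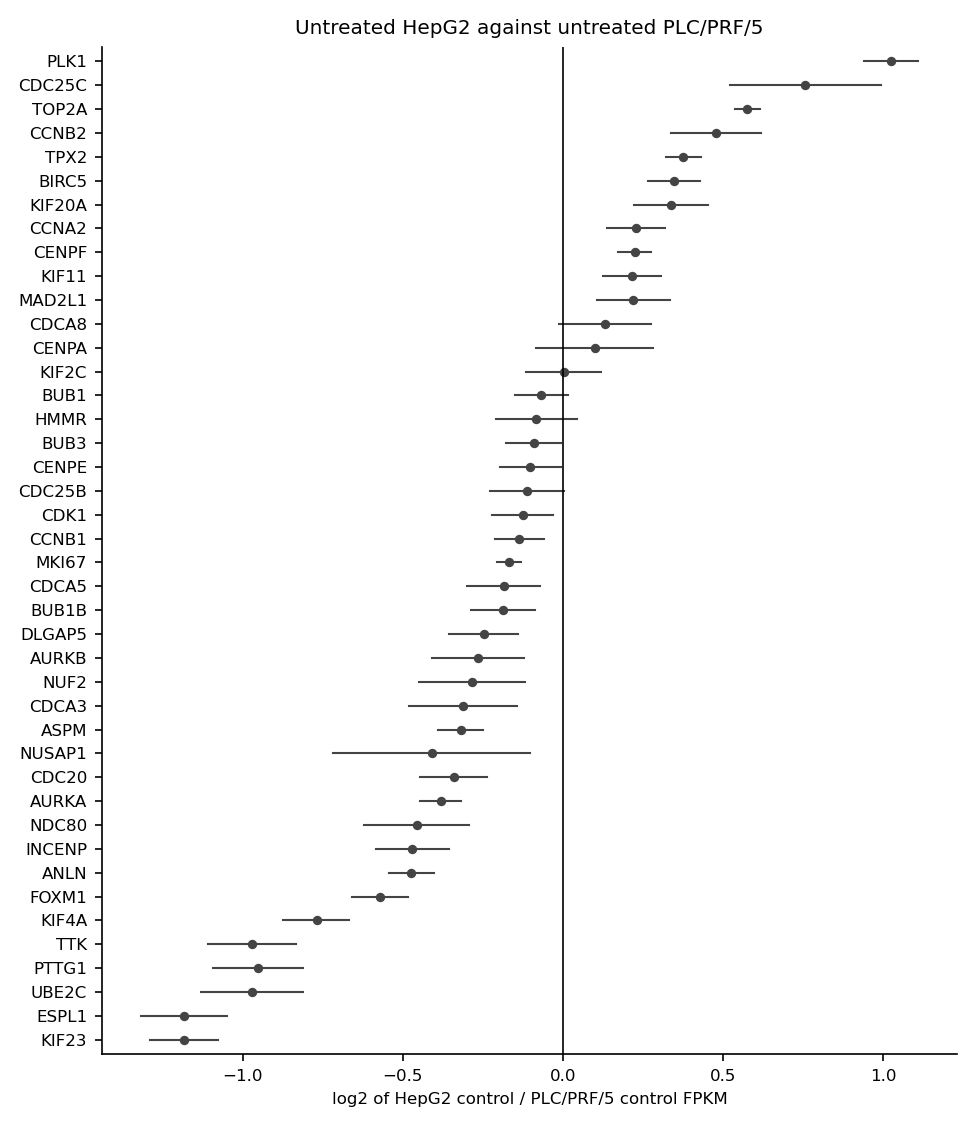
Log2 of the FPKM ratio, HepG2 control over PLC/PRF/5 control, for the 42 measured members in order, with 95% counting intervals as bars. KIF23 and ESPL1 lie furthest left and PLK1 furthest right, at a ratio of 2.04.

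Chromosome-wide differences between the lines were set beside these values for some of the chromosomes that hold members. DNA copy number was not measured here. On chromosome 16 the median log2 ratio of 644 genes was 0.43, beside 0.99 for PLK1. On chromosome X it was -0.65 over 474 genes, beside -0.73 for KIF4A, and on chromosome 15 -0.37 over 475 genes. The 4 measured members on chromosome 15 lay on both sides of 0: KIF23 at -1.10, NUSAP1 at -0.32, BUB1B at -0.18 and CCNB2 at 0.45. On chromosome 20, 389 genes had a median of 0.48 and the 4 members there were all lower: TPX2 was at 0.37, CDC25B at -0.11, AURKA at -0.38 and UBE2C at -0.94. Chromosome 12 had a median of -0.39 over 767 genes, beside -1.02 for ESPL1, -0.55 for FOXM1 and -0.26 for CDCA3. Chromosome 6 had -0.04 over 728 genes, beside -0.89 for TTK. Chromosome 5 had 0.003 over 591 genes, where the 5 members had a median of -0.08 and PTTG1 was at -0.92.

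Other genes of the same processes were taken from lists made from textbook knowledge. The median of 24 further kinesin and spindle genes was -0.38 in HepG2, where 24 were below 0 (82.4% of all genes) and 17 low (21.5%). Their median was -0.29 in PLC/PRF/5, where 23 were below 0 (70.9%) and 10 low (19.7%). Under median-of-ratios scaling 3 were low in HepG2 (8.33%) and 4 in PLC/PRF/5 (10.9%). KIFC1, a minus-end motor, was at 24.2 and 13.8 FPKM in HepG2 and at 21.9 and 16.5 in PLC/PRF/5. FAM83D, a spindle-targeting protein, had log2 ratios of -0.51 and -0.69. Of 31 measured further kinetochore and centromere genes, 31 were below 0 in HepG2 (82.4% of all genes) and 20 low (21.5%), with a median of -0.35. In PLC/PRF/5 29 were below 0 (70.9%) and 14 low (19.7%), with a median of -0.29. Scaled by median of ratios, 5 were low in HepG2 (8.33%) and 6 in PLC/PRF/5 (10.9%). CENPI, an inner kinetochore subunit, was at 4.14 and 1.18 FPKM in HepG2 and at 10.9 and 5.72 in PLC/PRF/5, log2 ratios of -1.24 and -0.82. DSN1, of the MIS12 complex, was at -0.60 and -0.46.

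Condensin and cohesin genes, many of which act outside mitosis too, lay nearer to all genes, with medians of -0.22 and -0.25 over 18 genes; the condensin subunits NCAPG and NCAPH had the largest mean changes, NCAPG at -0.53 and -0.43 and NCAPH at -0.49 and -0.32. Subunits and partners of the APC/C had medians of -0.27 over 15 genes and -0.23 over 16, with the APC/C inhibitor FBXO5 at -0.57 and -0.30 and the core subunit CDC27 at -0.28 and -0.45. Other cytokinesis genes had medians of -0.30 and -0.28 over 11 genes. The RhoA activator ECT2 was at 20.1 and 14.1 FPKM in HepG2 and at 52.2 and 34.1 in PLC/PRF/5, and its partner RACGAP1 at -0.55 and -0.49 on the log2 scale.

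A list of cell cycle kinases, phosphatases, inhibitors and cyclins had medians of -0.39 over 17 genes in HepG2 and -0.28 over 18 in PLC/PRF/5. It was not limited to mitotic entry and held the cyclin E genes CCNE1 and CCNE2 and the kinase gene CDK2. MELK, a kinase gene of the proliferation signature, was at 17.2 and 9.93 FPKM, and at 33.6 and 21.5. MASTL, which restrains the phosphatase that opposes CDK1, was at -0.49 in both lines. CDKN1A, the p53-induced inhibitor p21, named after its values were seen, was at 24.3 and 15.7 FPKM in HepG2 and at 6.73 and 8.92 in PLC/PRF/5, opposite directions. The DREAM, MuvB and E2F factors themselves lay near all genes, with medians of -0.23 and -0.16 over 21 genes, which were -0.04 and -0.05 under median-of-ratios scaling. The cell cycle repressor E2F7 was at -0.49 and -0.48, and E2F2 at -0.57 and -0.37. MYBL2, also named after its values were seen, was at 71.3 and 53.4 FPKM and at 75.6 and 62.4.

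Genes of DNA replication, the other large set of proliferation genes, were set beside the members. In HepG2 35 were measured, with a median of -0.37, 35 below 0 (82.4% of all genes) and 23 low (21.5%). In PLC/PRF/5 the median over 36 genes was -0.28, with 34 below 0 (70.9%) and 13 low (19.7%). Under median-of-ratios scaling 5 were low in each line (8.33% and 10.9% of all genes). The thymidine kinase gene TK1 was at 26.0 and 14.9 FPKM in HepG2 and at 25.4 and 18.8 in PLC/PRF/5, and the flap endonuclease gene FEN1 at -0.55 and -0.49. A difference between the replication and mitosis lists was not tested. The 14 housekeeping genes had medians of -0.21 and -0.22, with ACTB at -0.51 and -0.63 and YWHAZ at -0.37 and -0.45.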

How the data were processed

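RNA-seq values of 4 libraries were used, 1 for each group named in the labels. The authors deposited FPKM values for 32479 Ensembl genes; TopHat2 and GRCh38 are named in the submitters' processing notes. The program and annotation behind the FPKM were not given in the sources read. Symbols, positions and exon lengths came from GENCODE 29, which held all 43 members and 32354 of the genes. Fragments were recovered from the FPKM: with union exon lengths, 24385 genes (75.1%), 21 members among them, had 4 whole numbers of fragments, to a tolerance of 1e-06; for 22 members the length that made all 4 values whole differed from the union length by at most 4.89%. Depth was 16722204 to 21387301 fragments.

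Log2 ratios of (FPKM + 1) were computed where either library compared reached 1 FPKM, and counted past 0.32 with no p-value. Ratios carry 95% Clopper-Pearson conditional binomial intervals (scipy 1.17.1), and line differences exact conditional odds ratio intervals. The shared fit used limma 3.58.1 in R 4.3.3 with trend, on genes reaching 1 FPKM in 2 libraries or more. Every member could be named; full values were given for the largest and smallest mean change in each role group, the 5 largest differences between the lines and between the controls, and 2 genes of each other list. The members, lists, thresholds and tests were chosen with earlier results of these data known. Alternatives were other pseudocounts, filters, thresholds, scalings and limma settings.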

Additional observations from a re-analysis of the deposited data

Results flagged for a closer look

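On the deposited scale PLK1 was the member whose log2 ratios had opposite signs in the lines: the ratio was -0.33 in HepG2 and 0.09 in PLC/PRF/5, a difference of -0.42 (HepG2 minus PLC/PRF/5). On that scale the counting interval of its ratio in PLC/PRF/5 held 1 (0.996 to 1.14). With median-of-ratios factors PLK1 was at -0.12 in HepG2 and 0.21 in PLC/PRF/5, and no interval was computed there. Under median-of-ratios scaling CDC25C (-0.25 and 0.03), INCENP (0.03 and -0.17), NUF2 (0.09 and -0.23), PTTG1 (0.08 and -0.22) and FOXM1 (0.07 and -0.18) also had opposite signs. With 1 library per group the PLK1 difference was not tested against replicates. In GENCODE 29, 11.6% of the exon bases of PLK1 are shared with the antisense gene AC008870.3, which was listed at 0 in both PLC/PRF/5 libraries and at 0.187 and 0.230 FPKM in HepG2.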

How the results depend on the processing

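The member median stayed below 0 in both treatment comparisons under all 9 settings of scale, pseudocount and filter. The range was -0.73 to -0.18 (HepG2) and -0.68 to -0.20 (PLC/PRF/5). Its distance from the median of all genes was -0.24 to -0.19 and -0.26 to -0.19 in the 8 settings with a filter, and -0.35 and -0.32 with none. The median and the number of members at -0.32 or lower, for HepG2 and then PLC/PRF/5, were -0.73 with 42 and -0.68 with 42 on the TPM scale, -0.18 with 10 and -0.23 with 11 with median-of-ratios factors, -0.20 with 9 and -0.20 with 8 when quantile normalized, and -0.19 with 10 and -0.23 with 11 with totals over nuclear genes. Of all genes, 74.2% and 63.9% were that low on the TPM scale, and 8.33% and 10.9% with median-of-ratios factors. When quantile normalized 8.23% and 10.8% were, and with totals over nuclear genes 9.89% and 12.4%. A pseudocount of 5 left 15 members in PLC/PRF/5 (6.74% of all genes). At 1.5-fold 4 and 4 members were lower (5.54% and 5.07% of all genes), and at 2-fold 0 and 0 (2.14% and 1.82%). In PLC/PRF/5 38 had a counting interval below 1 (41.4%). Between the controls, the TPM scale turned the median to 0.049, with 7 members lower (30.8% of all genes) and 12 higher (41.3%). At 1.5-fold 6 were lower (23.7%) and 2 higher (19.8%), and at 2-fold 2 (13.1%) and 0 (10%). By counting interval 25 were lower (40.6%) and 11 higher (34.6%). The median difference between the lines turned to 0.037 with median-of-ratios factors, 0.0011 when quantile normalized and 0.021 with nuclear totals. In the shared fit 40 members passed on the TPM scale (30.5% of all genes) and 0 under the other 12 alternatives run with limma. Under those 12, 3 to 36 members had an unadjusted limma p under 0.05, beside 0.872% to 27.2% of all genes. Of 1003 single-gene values under an alternative, 343 moved by more than the half-width of their counting interval, and 0 of those past 0.32 changed sign. The shared fit pairs the libraries of a line through the cell line block, with 1 residual degree of freedom. Without that block 3 members in place of 34 had an unadjusted limma p under 0.05 (0.872% and 19.4% of all genes). In either fit 0 passed. The labels give no replicate numbers, and leaving out a library would leave a group empty. The typical half-width of a member's interval was 0.12 (HepG2) and 0.11 (PLC/PRF/5) on the log2 scale, which limits what depth can show.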
